A study of Mus musculus with 11 samples.

Results

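Oxidative phosphorylation was followed through 46 genes of its enzymes, 13 encoded in the mitochondrial genome and 33 in the nucleus, in distal ileum from mice that had been given dextran sodium sulfate. The 46 were a list of gene symbols drawn from the 5 respiratory complexes together with cytochrome c, and all 46 were found among the 31168 gene rows of the deposited count table. The libraries came from 5 dIEC mice, H2-Ab1 fl/fl with Villin:Cre+, and 6 WT mice, H2-Ab1 fl/fl with Villin:Cre-. Both groups therefore carried floxed H2-Ab1, the gene of a chain of an MHC class II molecule, and both had received dextran sodium sulfate, a polysaccharide that injures the intestinal lining. The villin promoter drives Cre recombinase in the intestinal epithelium, whereas each library was made from a whole 2 cm piece of ileum that also holds immune cells, connective tissue and the muscle wall. In the series' design text the genotype is Cre- in both groups, so dIEC and WT were assigned by the genotype that each sample's own label gives. The design text counts 5 and 6 mice, and each library was taken as 1 mouse. The sources used here do not state ages.

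Oxidative phosphorylation makes ATP in mitochondria by passing electrons along protein complexes of the inner membrane to oxygen. Complexes I and II take electrons from NADH and succinate, complex III passes them to the small carrier cytochrome c, complex IV hands them to oxygen, and complex V uses the resulting proton gradient to make ATP. A few core subunits are encoded by the mitochondrial genome and copied as long transcripts that are cut into single RNAs. All other subunits, including every subunit of complex II, are encoded in the nucleus and imported. In the small intestine, absorptive enterocytes, which spend ATP on the uptake of nutrients and salts, are rich in mitochondria.

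Counts per library ran from 6603965 to 9681698. Of these, 1510296 to 3215574 fell to protein-coding genes, Lars2 left out. Nuclear ribosomal rows took 40.5 ± 8.50% of the counts in dIEC and 34.6 ± 6.91% in WT (SD, n = 5 and 6). The mitochondrial messenger rows held 61681 to 120907 counts per library and the 33 nuclear members together 6947 to 17236, with 645 to 39275 counts for a single mitochondrially encoded gene and 39 to 3379 for a single nuclear one. H2-Ab1 averaged 26.0 ± 9.87 CPM (counts per 1000000 counts of the library after scaling by edgeR's TMM factors) in dIEC and 83.1 ± 27.4 CPM in WT, and the groups did not overlap (log2 fold change -1.68 ± 0.28, SE; edgeR quasi-likelihood test, Benjamini-Hochberg adjusted p = 0.361). A two-sided exact permutation test of H2-Ab1 gave p = 0.00433, the smallest it can give. By the same edgeR test 1 of 15911 genes (0.00628%) had an adjusted p under 0.05, the metallothionein Mt1, named here after its value was seen. DESeq2 gave 11 genes (0.0691%) at an adjusted p under 0.05. At an unadjusted edgeR p under 0.05 there were 1696 genes (10.7%), 775 of them higher in dIEC (4.87%) and 921 lower (5.79%). All p-values reflect only the spread among these 11 libraries.

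Of the 13 mitochondrially encoded members, all but mt-Nd1 and mt-Cytb overlap another member or have an annotated near-identical copy elsewhere in the genome. On GRCm38, mt-Atp8 (chrM:7766-7969) and mt-Atp6 (chrM:7927-8607) share 43 bases of the + strand. These bases are shown because a read that lies within them belongs to both genes; the capitals mark the start codon of mt-Atp6 at the left end and the stop codon of mt-Atp8 at the right end.
mt-Atp8 and mt-Atp6, chrM:7927-7969: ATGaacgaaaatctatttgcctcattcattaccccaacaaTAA
Another 3 pairs of neighbours overlapped by 7 bases (mt-Nd4l and mt-Nd4), 14 bases (mt-Nd5 and mt-Nd6, on opposite strands) and 1 base (mt-Atp6 and mt-Co3). The library kit marks strand, but the sources used here do not state the strand setting of the counting.

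Copies of mitochondrial genes inserted in the nuclear genome have rows of their own in the table, with counts that ranged from nearly none to more than those of the gene. Annotated copies on the - strand of chromosome 1 held within 1% of their gene's count in every library for mt-Co2, mt-Co3, mt-Nd3 and mt-Nd4l (99.7 to 100.8% of it). For mt-Nd3 the copy Gm28438 differed from the gene at 1 of 345 compared bases. The first bases of both are shown because the difference lies there; the capital marks position 3, counted from 1 at the 5′ end of the gene, and the substitution from the gene to the copy is T3C.
mt-Nd3, chrM:9459-9475, + strand: atTaacctgtacactgt
Gm28438, chr1:24613103-24613119, - strand: atCaacctgtacactgt
How reads that match several positions were counted is not stated in the sources used here. The copy of mt-Nd4 (Gm28439, 876 aligned bases) held 59.2 to 62.3% of its gene's count, and that of mt-Co1 (Gm29216, 483 aligned bases) held 27.9 to 29.9%. Gm10925, identical to mt-Atp6 over 678 bases, held 147 to 155% of the mt-Atp6 count. At the low end, over all libraries, Gm13341 held 6.87% of the mt-Co2 count, Gm13340 1.96% of that of mt-Co1, Gm13339 0.746% of that of mt-Nd2 and Gm4076 0.0194% of that of mt-Nd5. In all, 9 of the 13 mitochondrially encoded members and 6 of the 33 nuclear ones had such a copy in the table, at 95% identity or more over at least 200 bases. The values of these 15 genes are uncertain to the extent that reads were divided or repeated between gene and copy, which was not tested. The CPM below are those of each gene's own row as deposited.

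Transcripts of the 13 mitochondrially encoded subunits stood at almost the same level in dIEC and WT ileum. Their summed level was 12046, 12070, 12560, 11774 and 13537 CPM in dIEC replicates 1, 3, 5, 6 and 11, against a lowest, median and highest WT value of 11230, 12201 and 14464 CPM. The means were 12398 ± 697 CPM in dIEC and 12380 ± 1186 CPM in WT (SD, n = 5 and 6). The dIEC values lay wholly inside the WT range. Gene by gene, 7 of the 13 had a log2 fold change above 0 and 6 below, with a median of 0.0040 beside -0.0071 for all genes tested. With libraries scaled by their total counts alone, 0 of the 13 were above 0 (median -0.21), while the median of all genes was then -0.22. None of the 13 had an edgeR p under 0.05, before or after adjustment (lowest adjusted p = 0.660, mt-Nd6), and DESeq2 gave none either. In 13 of 13 the 95% interval of the fold change lay inside 1.5-fold either way, the widest bounds being 0.721-fold and 1.41-fold. Over all genes tested 52.8% had so narrow an interval.

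**Figure D1:**
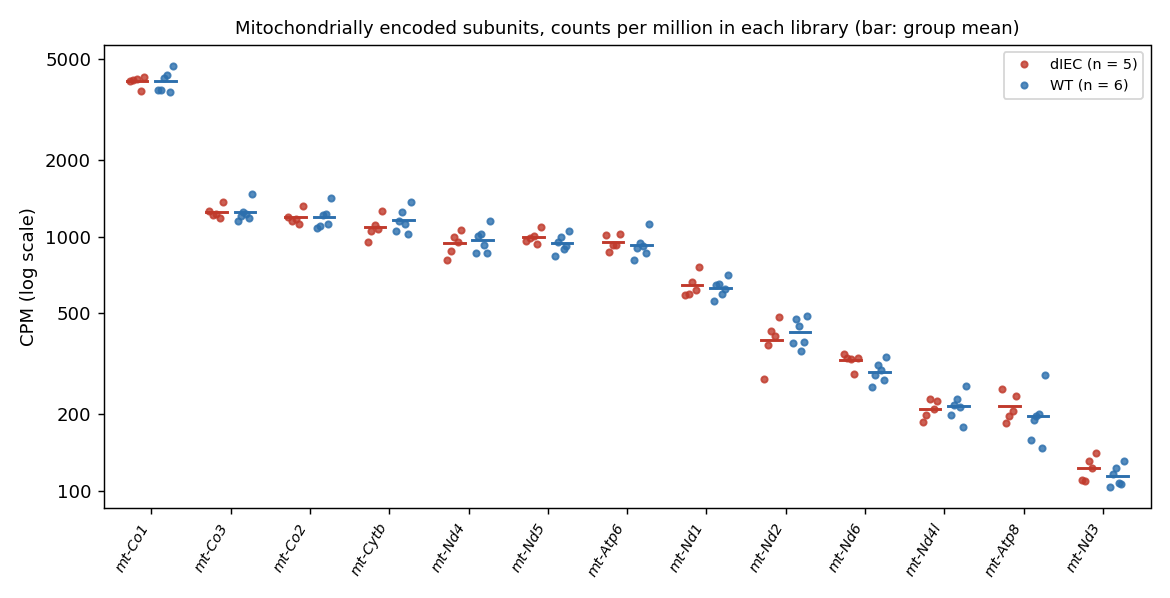
Level of each mitochondrially encoded subunit transcript in CPM (log axis) in every library, dIEC to the left of WT, with a bar at the group mean. The groups overlapped for all 13 genes, and the topmost WT point of each gene is WT replicate 12.

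Complex I, the NADH dehydrogenase, takes 7 subunits from the mitochondrial genome, all of them membrane parts of its proton pump. Values of dIEC libraries are given in the order of replicates 1, 3, 5, 6 and 11, and WT values as lowest, median and highest of 6. mt-Nd1 (chrM:2751-3707, +) was at 592, 596, 664, 616 and 758 CPM in dIEC, against 557, 633 and 708 CPM in WT. Apart from dIEC replicate 11, which was above every WT library, the dIEC libraries lay within the WT range (log2 fold change 0.036 ± 0.15, SE; edgeR adjusted p = 0.948). mt-Nd2 (chrM:3914-4951, +) was at 277, 374, 425, 406 and 482 CPM in dIEC, against 355, 414 and 487 CPM in WT. Here dIEC replicate 1 was below every other library, and the log2 fold change, -0.10 ± 0.17, was the lowest of the 13 (edgeR adjusted p = 0.855).

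mt-Nd3 (chrM:9459-9806, +), the short subunit whose copy is shown above, was at 111, 109.9, 131, 124 and 142 CPM in dIEC, against 104, 112 and 131 CPM in WT. The 2 highest values of all 11 were those of dIEC replicates 5 and 11, and the other dIEC libraries lay within the WT range (log2 fold change 0.10 ± 0.11; edgeR adjusted p = 0.740). mt-Nd4 (chrM:10167-11544, +) was at 812, 880.3, 997, 952 and 1057 CPM in dIEC, against 859, 963 and 1147 CPM in WT. mt-Nd4l (chrM:9877-10173, +), read from the same transcript just before it, was at 186, 199.5, 230.3, 211 and 226 CPM in dIEC, against 179, 216 and 258 CPM in WT. In both genes dIEC replicate 1 was the lowest dIEC library, and log2 fold changes were -0.044 ± 0.17 and -0.039 ± 0.13 (edgeR adjusted p = 0.945 and 0.935).

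mt-Nd5 (chrM:11742-13565, +) was at 962, 987, 1005, 938 and 1091 CPM in dIEC, against 842, 932 and 1051 CPM in WT. All 5 dIEC values were above the WT median, yet the ranges overlapped and the log2 fold change was 0.082 ± 0.16 (edgeR adjusted p = 0.878). mt-Nd6 (chrM:13552-14070, -), the one subunit encoded on the other strand of the mitochondrial genome, was at 345, 333, 329, 289 and 333 CPM in dIEC, against 256, 291 and 335 CPM in WT. Its dIEC values were close together except for replicate 6, which lay below the WT median. The log2 fold change of mt-Nd6, 0.15 ± 0.13, was the highest of the 13, with an interval of -0.13 to 0.43 (edgeR adjusted p = 0.660; two-sided exact permutation p = 0.0649).

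Complex III takes a single mitochondrially encoded subunit, cytochrome b. mt-Cytb (chrM:14145-15288, +) was at 953, 1051, 1106, 1066 and 1262 CPM in dIEC, against 1020.5, 1139 and 1361 CPM in WT. Only dIEC replicate 11 exceeded the WT median, and dIEC replicate 1 was below all WT libraries (log2 fold change -0.094 ± 0.18; edgeR adjusted p = 0.871).

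Complex IV, cytochrome c oxidase, has its catalytic core of 3 subunits encoded in the mitochondrion. mt-Co1 (chrM:5328-6872, +), which carries the oxygen-binding haem, was at 4098, 4116, 4145, 3731 and 4240.4 CPM in dIEC, against 3690.2, 3984 and 4689.8 CPM in WT. mt-Co2 (chrM:7013-7696, +), which receives electrons from cytochrome c, was at 1191, 1153, 1176, 1122 and 1324 CPM in dIEC, against 1085, 1168 and 1418 CPM in WT. mt-Co3 (chrM:8607-9390, +) was at 1256, 1220.3, 1232, 1187 and 1363 CPM in dIEC, against 1151, 1218 and 1469.7 CPM in WT. All 3 transcripts had their dIEC libraries inside the WT range, and log2 fold changes of -0.0014, -0.0017 and 0.0040 (SE 0.21, 0.17 and 0.17; edgeR adjusted p = 0.999, 0.999 and 0.996). The spread within groups was small (SD 0.112 on the log2 scale for mt-Co1), and the error of the fit, which pools information over genes, was wider than this spread.

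Complex V, the ATP synthase, takes subunits a and A6L of its membrane part from the overlapping pair mt-Atp6 and mt-Atp8. mt-Atp6 was at 1012, 866, 923, 926 and 1022 CPM in dIEC, against 809.5, 909 and 1124 CPM in WT. mt-Atp8 was at 252, 186, 198, 207 and 237 CPM in dIEC, against 148, 194 and 285 CPM in WT. In both, dIEC replicates 1 and 11 were the highest dIEC libraries and WT replicate 12 was above them. The log2 fold changes were 0.037 ± 0.17 and 0.13 ± 0.17 (edgeR adjusted p = 0.954 and 0.785).

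The mitochondrially encoded genes had their highest values in the same libraries. WT replicate 12 was the highest WT library for 13 of the 13 genes, but for only 2 of the 33 nuclear members. Among dIEC libraries, replicate 11 was the highest for 10 of the 13. It was also the highest dIEC library for 10 of the 33 nuclear members, and dIEC replicate 3 was so for 16. Without WT replicate 12 the median log2 fold change of the 13 was 0.064, with 11 above 0 and none at an unadjusted edgeR p under 0.05.

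Levels can be compared between genes only per length, and the following are CPM per kilobase of gene model. The gene model is the summed length of all annotated exons, which for nuclear genes can exceed a single transcript. It was 3567 bases for Cox6c and 2178 for Ndufs3, whose longest coding transcripts have 738 and 1046 bases, and 1545 by either measure for mt-Co1. Values per kilobase of nuclear genes are lowered to that extent, as is their order. mt-Co1 led with 2632 ± 126 in dIEC and 2634 ± 253 in WT. It was followed by mt-Co2 with 1744 ± 113 in dIEC and 1746 ± 183 in WT, mt-Co3 with 1596 ± 85.1 and 1592 ± 146, and mt-Atp6 with 1395 ± 97.1 and 1360.0 ± 157. The complex I genes filled the lower end, from mt-Nd4l with 709 ± 61.8 in dIEC and 729 ± 91.1 in WT down to mt-Nd3 with 355 ± 39.1 in dIEC and 329.6 ± 30.7 in WT. The order was the same in both groups except that mt-Atp8 (1057 ± 135 in dIEC, 964 ± 236 in WT) and mt-Cytb (951 ± 98.5 in dIEC, 1015 ± 112 in WT) changed places. Within WT, several neighbours in this order lay closer than the larger of their SDs, namely mt-Co2 and mt-Co3, mt-Cytb with mt-Atp8 and mt-Atp8 with mt-Nd4l, mt-Nd4l with mt-Nd4 and mt-Nd4 with mt-Nd1, and mt-Nd6 and mt-Nd5. The highest level was 7.42 times the lowest in dIEC and 7.99 times in WT. The nuclear members had a median of 15.002 CPM per kilobase in dIEC and 15.6 in WT, against 709 and 729 for the mitochondrially encoded genes.

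As a sum, the 33 nuclear members also differed little between the groups. Their summed level was 1519.5, 1795.1, 1415, 1581 and 1725 CPM in dIEC, against a lowest, median and highest WT value of 1407, 1559 and 1633 CPM. The 2 highest of the 11 sums were dIEC replicates 3 and 11, while dIEC replicates 1 and 5 lay under the WT median. Of the 33, 22 had a log2 fold change above 0 and 11 below, with a median of 0.034. Over all genes tested, 48.8% were above 0. Scaled by total counts alone, 2 of the 33 were above 0 (median -0.17, beside -0.22 for all genes). None passed the adjusted threshold with edgeR or DESeq2, beside 0.00628% and 0.0691% of all genes. Cycs alone had an unadjusted edgeR p under 0.05, which is 1 of 33 (3.03%) beside 10.7% of all genes tested, or 4.87% counting genes higher in dIEC alone. The share over all genes was itself unsteady, at 20.98% without WT replicate 8, 6.71% without WT replicate 4, 4.05% with the score of the smooth muscle markers as a covariate and 3.14% with that of the absorptive enterocyte markers. In none of the 33, nor in any of the 13 mitochondrially encoded genes, did the libraries of the groups fail to overlap, beside 0.566% of all genes. The 95% interval lay inside 1.5-fold either way for 32 of the 33, all but Cycs, and inside 2-fold for all of them. Over all genes tested, 52.8% lay inside 1.5-fold and 13748 of 15911 inside 2-fold. Genes were not matched by count level here either.

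**Figure D2:**
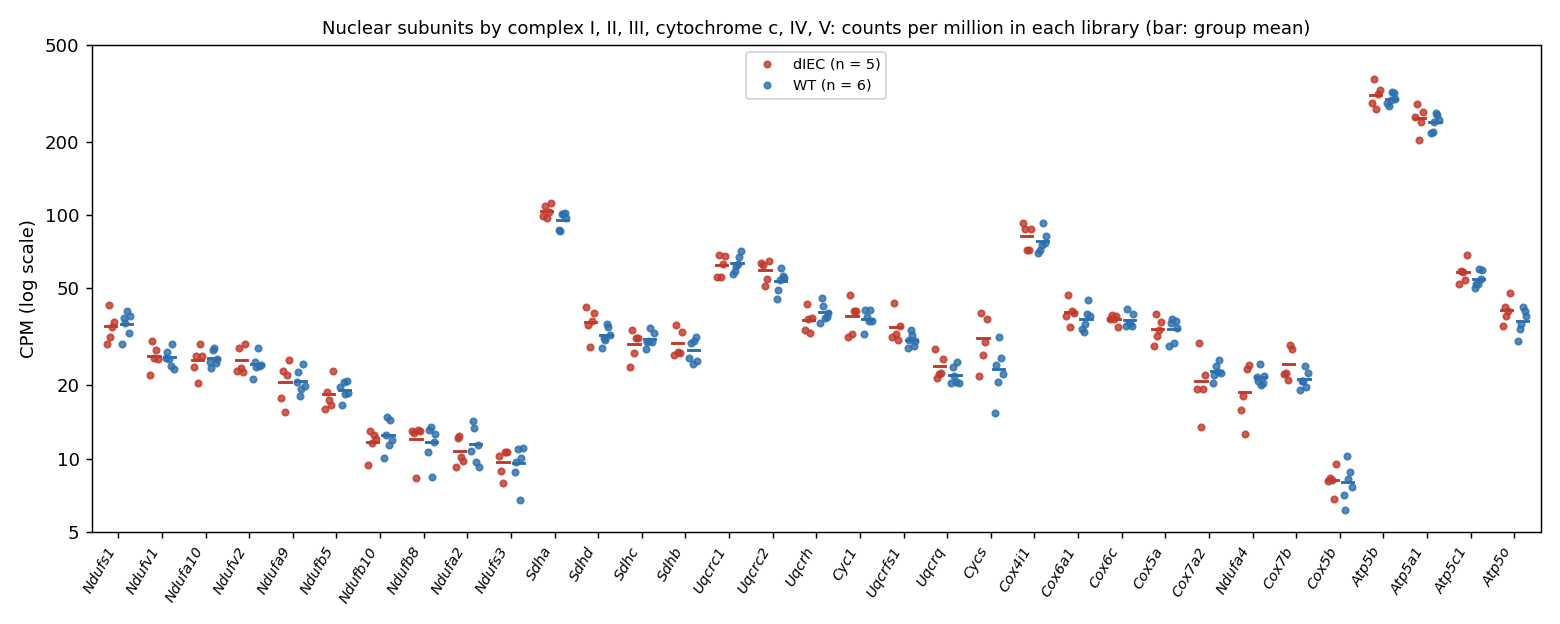
Level of each of the 33 nuclear members in CPM (log axis) in every library, dIEC to the left of WT, ordered by complex and then by WT level, with a bar at the group mean. The groups overlapped for every gene; Cycs had means of 31.1 CPM in dIEC and 23.3 CPM in WT.

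Cytochrome c, encoded by Cycs, is the soluble carrier between complexes III and IV and, when released from mitochondria, a trigger of programmed cell death. Cycs (chr6:50562563-50566538, -) was at 21.8, 39.6, 26.7, 30.1 and 37.4 CPM in dIEC, against 15.3, 23.2 and 31.6 CPM in WT. dIEC replicates 3 and 11 were above every WT library, and dIEC replicate 1 was below the WT median. The means were 31.1 ± 7.41 CPM in dIEC and 23.3 ± 5.43 CPM in WT, a log2 fold change of 0.42 ± 0.18 (fold 1.34, interval 1.02 to 1.75). It did not pass adjustment (edgeR adjusted p = 0.444, unadjusted p = 0.0346; two-sided exact permutation p = 0.0779). The unadjusted edgeR p of Cycs was 0.112 without dIEC replicate 3, 0.0947 without dIEC replicate 11, and 0.0696, 0.0681 and 0.0529 without WT replicates 2, 7 and 12. It was 0.0087 without dIEC replicate 1 and 0.0075 without WT replicate 8, with a log2 fold change of 0.53 in both. Without dIEC replicates 5 and 6 and WT replicates 4 and 9 it was 0.0308, 0.0471, 0.0466 and 0.0385. Counting every setting tried, it was under 0.05 in 12 of 20. Cycs varied more within groups than any other member, with an SD of 0.348 on the log2 scale.

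Cycs is also the nuclear member with the most near-identical copies in the table. Gm10053 matched its transcript at 99.9% of 946 bases and held 145% of its counts, Gm10108 held 58.9% and Gm13772 35.5%. These rows gave log2 fold changes of 0.40 ± 0.18, 0.46 ± 0.19 and 0.46 ± 0.20 (edgeR adjusted p = 0.456, 0.441 and 0.443). Being nearly identical in sequence, these rows are not given as an independent measurement of Cycs. With the score of the absorptive enterocyte markers as a covariate, the log2 fold change of Cycs was 0.21 (edgeR unadjusted p = 0.294), the lowest of 20 settings, and over these its adjusted p ran from 0.0976 to 0.999.

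Among the 10 nuclear members of complex I, 4 had a log2 fold change above 0 and 6 below (median -0.015). They comprised the core subunits Ndufs1, Ndufs3, Ndufv1 and Ndufv2, of the arm that oxidises NADH, and the accessory subunits Ndufa2, Ndufa9, Ndufa10, Ndufb5, Ndufb8 and Ndufb10. The lowest p belonged to Ndufb10 (chr17:24722060-24724478, -), at 9.39, 13.0, 11.6, 12.5 and 12.01 CPM in dIEC, against 10.1, 12.2 and 14.7 CPM in WT. Its dIEC libraries lay among the WT values, with dIEC replicate 1 below them (log2 fold change -0.098 ± 0.13; edgeR adjusted p = 0.796). The highest p belonged to Ndufa9 (chr6:126821721-126849136, -), at 17.8, 22.9, 15.5, 21.997 and 25.4 CPM in dIEC, against 18.1, 20.2 and 24.5 CPM in WT. The dIEC values of Ndufa9 reached past the WT range at both ends (log2 fold change -0.0053 ± 0.13; edgeR adjusted p = 0.992). The other 8 had log2 fold changes between -0.097 (Ndufa2) and 0.062 (Ndufv2). Ndufs3, at 0.016 ± 0.14, had a processed pseudogene, Gm12251, with 141% of its counts. The complex's summed level was 195 ± 20.03 CPM in dIEC and 197 ± 8.57 CPM in WT.

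Complex II, the succinate dehydrogenase that also serves the citric acid cycle, was covered whole by Sdha, Sdhb, Sdhc and Sdhd. Sdha carries the flavin, Sdhb the iron-sulfur clusters, and Sdhc and Sdhd anchor the enzyme in the membrane. The lowest p was that of Sdhd (chr9:50596357-50603812, -), at 41.8, 35.3, 28.7, 36.7 and 39.6 CPM in dIEC, against 28.4, 31.6 and 35.7 CPM in WT. In dIEC, 3 libraries were above all WT libraries, and dIEC replicate 5 was near the bottom of the WT range. The log2 fold change of Sdhd was 0.18 ± 0.11, with an interval of -0.041 to 0.41 (edgeR adjusted p = 0.524). Sdhc (chr1:171127165-171150603, -) was at 23.7, 33.8, 27.1, 31.3 and 31.2 CPM in dIEC, against 28.1, 30.2 and 34.2 CPM in WT, with dIEC replicates 1 and 5 below all WT libraries (log2 fold change -0.068 ± 0.10; edgeR adjusted p = 0.831). Sdha and Sdhb had log2 fold changes of 0.12 ± 0.10 and 0.10 ± 0.11.

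Complex III was represented by the core proteins Uqcrc1 and Uqcrc2, the iron-sulfur protein Uqcrfs1, cytochrome c1 (Cyc1) and the small subunits Uqcrq and Uqcrh. Of these 6, 4 had a log2 fold change above 0 and 2 below (median 0.077). Uqcrfs1 (chr13:30540308-30545362, -), which moves electrons from ubiquinol to cytochrome c1, was at 31.5, 43.3, 32.4, 30.54 and 34.9 CPM in dIEC, against 28.5, 30.48 and 33.7 CPM in WT. Every dIEC value was above the WT median, and those of replicates 3 and 11 exceeded the WT range (log2 fold change 0.17 ± 0.10; edgeR adjusted p = 0.540). Uqcrc1 (chr9:108936633-108949623, +) was at 55.8, 68.3, 55.8, 62.7 and 67.7 CPM in dIEC, against 57.2, 62.5 and 70.8 CPM in WT. Its groups covered nearly the same range (log2 fold change -0.026 ± 0.097; edgeR adjusted p = 0.944). The other 4 ran from -0.11 (Uqcrh) to 0.15 (Uqcrc2).

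Complex IV was represented by 8 nuclear genes, among them Cox4i1, Cox5a, Cox5b, Cox6a1, Cox6c, Cox7a2 and Cox7b. Ndufa4, named for complex I, is now regarded as a complex IV subunit and was counted here. Of the 8, 6 had a log2 fold change above 0 (median 0.020). The lowest p was that of Cox7b (chrX:106015700-106022450, +), at 22.3, 22.3, 20.97, 29.1 and 28.0 CPM in dIEC, against 19.2, 20.8 and 23.9 CPM in WT. dIEC replicates 6 and 11 were above all WT libraries, and the other 3 dIEC libraries lay between the WT median and the WT maximum. The log2 fold change of Cox7b was 0.22 ± 0.11, with an interval of -0.016 to 0.45 (edgeR adjusted p = 0.482; two-sided exact permutation p = 0.0823), and a copy, Gm19503, held 26.8% of its counts.

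At the other end of complex IV, Cox5a (chr9:57521274-57532426, +) was at 28.9, 39.2, 31.8, 33.7 and 36.2 CPM in dIEC, against 29.1, 35.2 and 37.3 CPM in WT. Its groups covered nearly the same range, with a mean of 33.9 CPM in both (log2 fold change 0.0040 ± 0.11; edgeR adjusted p = 0.992). Ndufa4 had the lowest log2 fold change of all 46 members, -0.19 ± 0.15 (interval -0.50 to 0.12; edgeR adjusted p = 0.620). It averaged 18.8 ± 4.89 CPM in dIEC and 21.6 ± 1.599 CPM in WT, with 3 of the 5 dIEC libraries below the lowest WT value of 20.04 CPM. Cox5b was the member with the fewest counts relative to its copy, since Gm11273 held 323% of its counts, with a log2 fold change of 0.066 beside 0.026 for Cox5b itself. The 5 complex IV genes other than Cox7b, Cox5a and Ndufa4 ran from -0.13 (Cox7a2) to 0.098 (Cox6a1).

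Complex V was represented by the catalytic core, whose alpha, beta and gamma subunits are encoded by Atp5a1, Atp5b and Atp5c1, and by Atp5o of the stalk. All 4 had log2 fold changes above 0, between 0.053 (Atp5a1) and 0.14 (Atp5o). Atp5o (chr16:91925214-91931687, -) was at 35.1, 41.8, 38.5, 40.5 and 47.6 CPM in dIEC, against 30.4, 37.1 and 42.1 CPM in WT. Only dIEC replicate 11 exceeded the WT range (log2 fold change 0.14 ± 0.11; edgeR adjusted p = 0.608). Atp5a1 was at 251, 286, 203, 239.8 and 265 CPM in dIEC, against 217, 243 and 262 CPM in WT. Its dIEC libraries reached past the WT range at both ends (log2 fold change 0.053 ± 0.13; edgeR adjusted p = 0.908). Per kilobase of gene model, Atp5a1 (79.4 ± 9.91 CPM in dIEC, 76.6 ± 5.94 in WT) and Atp5b (73.6 ± 8.31 in dIEC, 70.7 ± 3.60 in WT) had the highest values of the nuclear members. They lay closer to each other than the larger of their SDs.

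**Figure D3:**
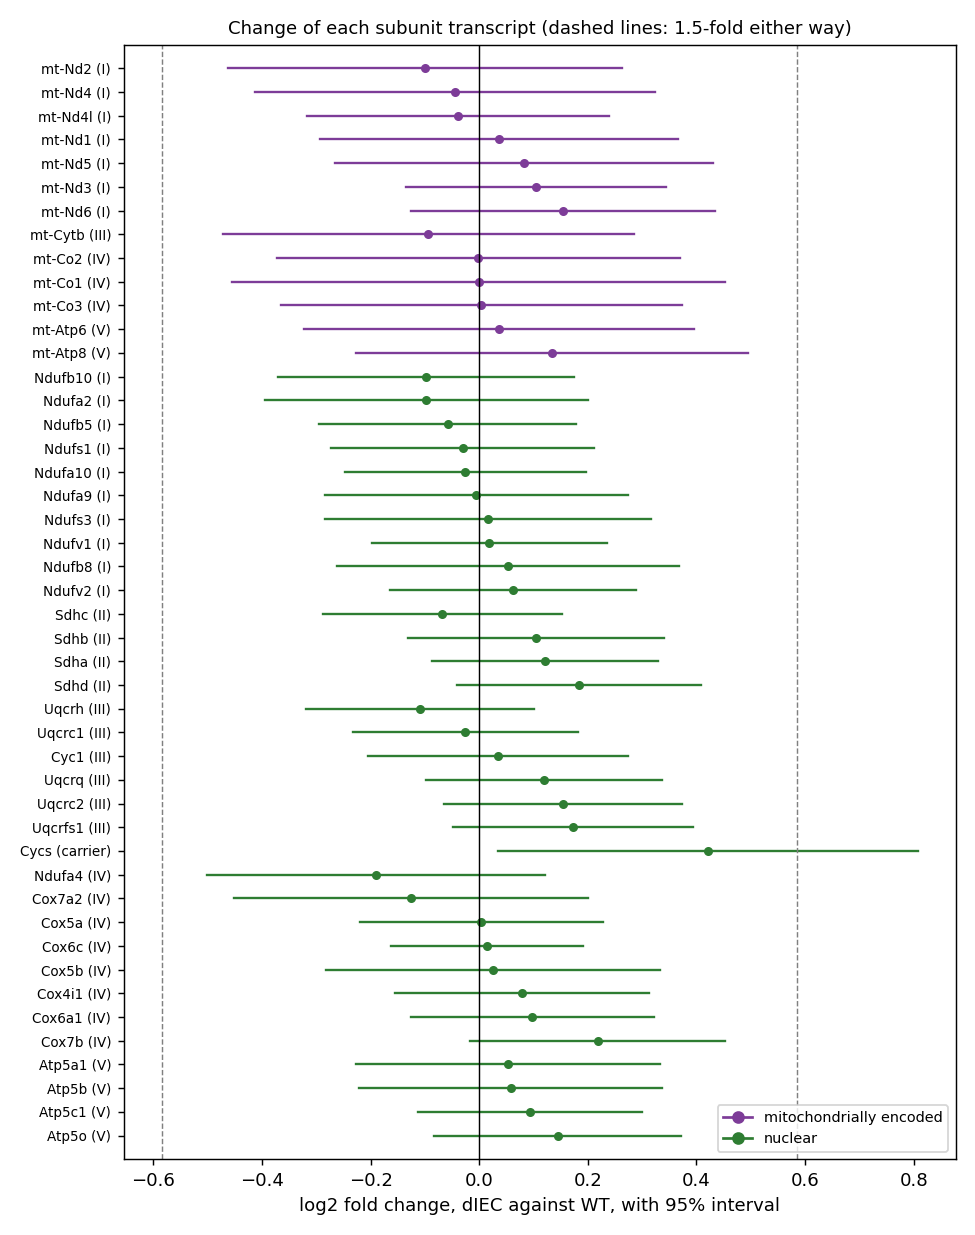
Log2 fold change of each of the 46 members, dIEC against WT, as a point with its 95% interval, mitochondrially encoded members above and nuclear members below, with the complex in brackets. Every interval but that of Cycs (0.04 to 0.81) includes 0, and every interval but that of Cycs lies inside the dashed lines at 1.5-fold. Over all genes tested, 52.8% of intervals lay inside 1.5-fold.

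Taking the 46 members as one list, 29 had a log2 fold change above 0 and 17 below, with a median of 0.030. Over all genes tested, 48.8% were above 0. Of the 46, 1 (2.17%) had an unadjusted edgeR p under 0.05, beside 10.7% of all genes tested, and 0 an adjusted one, beside 0.00628%. DESeq2 gave 0 of the 46 at an adjusted p under 0.05, beside 0.0691%. Their median within-group SD was 0.157 on the log2 scale, beside 0.285 over all genes tested. It was 0.200 for 45 further subunits of complexes I, III, IV and V and 0.170 for genes of pyruvate entry and the citric acid cycle. Genes were not matched by count level in this comparison. In a piece of whole tissue, fewer cells of a kind and less RNA per cell cannot be told apart.

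Seen as a share of the library, the mitochondrially encoded members held 1.01, 1.39, 0.934, 1.02 and 1.39% of all counts in dIEC, against a lowest, median and highest WT value of 1.06, 1.37 and 1.601%. In dIEC, 3 libraries were below every WT library, and these were the dIEC libraries with the largest ribosomal shares, 44.5 to 49.2%. With protein-coding counts as the denominator the shares were 3.87 ± 0.251% in dIEC and 4.18 ± 0.509% in WT, and with ribosomal rows left out they were 2.29 ± 0.160% in dIEC and 2.43 ± 0.230% in WT. The nuclear members held 0.502 ± 0.0489% of protein-coding counts in dIEC and 0.520 ± 0.0278% in WT. A library held 7.76 ± 0.784 mitochondrially encoded counts per nuclear count in dIEC and 8.02 ± 0.739 in WT. Each of these differences was smaller than the SD of at least one of its groups.

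**Figure D4:**
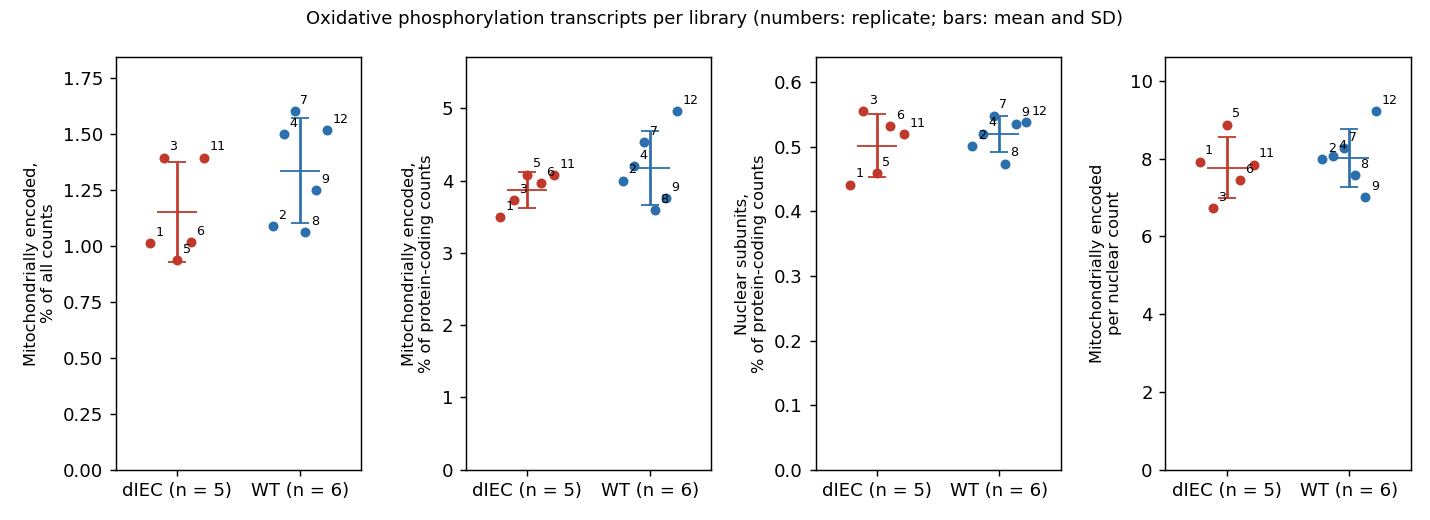
Share of counts in the mitochondrially encoded members, of all counts and of protein-coding counts, share of protein-coding counts in the nuclear members, and mitochondrially encoded counts per nuclear count, for each library with its replicate number, dIEC left of WT, with mean and SD. The groups overlap in all 4 measures; the ratio ran from 6.72 to 8.88 in dIEC and from 7.01 to 9.23 in WT.

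Whether a mitochondrially encoded gene and a nuclear gene of the same complex varied together was examined in 4 pairs over the 11 libraries, on log2 CPM. mt-Co1 and Cox4i1 had Pearson's r = 0.56 (permutation p = 0.0712, adjusted over the 4 pairs 0.258) and Spearman's rho = 0.55 (permutation p = 0.0823), and r was 0.71 without the 2 libraries farthest from the median of mt-Co1. mt-Cytb and Uqcrc1 had r = 0.49 (permutation p = 0.129) and rho = 0.45 (permutation p = 0.173), but r was 0.022 without WT replicate 12 and dIEC replicate 1. mt-Nd1 and Ndufs1 had r = 0.27 (permutation p = 0.422) and rho = 0.25 (permutation p = 0.453), with r = 0.16 without 2 libraries. mt-Atp6 and Atp5b had r = -0.11 (permutation p = 0.752) and rho = -0.018 (permutation p = 0.967), with r = -0.27 without 2 libraries. No pair reached an adjusted p under 0.05, and within the 6 WT libraries r was 0.65, 0.43, 0.60 and 0.044 in the same order of pairs.

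Among the other genes of the pathway none passed the adjusted edgeR threshold. Of 45 further subunits of complexes I, III, IV and V, 21 had a log2 fold change above 0, and the median was -0.014. None had an unadjusted edgeR p under 0.05, beside 10.7% of all genes tested. They ranged from -0.26 ± 0.23 (Ndufb6, a membrane subunit of complex I) to 0.20 ± 0.13 (Ndufs4, an accessory subunit of its matrix arm). Complex III ran from -0.16 (Uqcr10) to 0.030 (Uqcrb), complex IV from 0.072 (Cox6b1) to 0.13 (Cox7c) and complex V from -0.15 (Atp5g1) to 0.11 (Atp5g2). The forms of complex IV subunits that belong to muscle or lung were nearly absent, Cox6a2, Cox8b and Cox4i2 reaching 2, 3 and 4 counts in any library. Cox7a1, the form of heart and skeletal muscle, averaged 3.53 ± 1.39 CPM in dIEC and 2.52 ± 0.839 CPM in WT (log2 fold change 0.46 ± 0.28; edgeR adjusted p = 0.542). Of 45 assembly factors 41 could be tested, and 16 had a log2 fold change above 0. An unadjusted edgeR p under 0.05 was found for 1 (2.44%), beside 10.7% of all genes tested. This was the inner membrane insertase gene Cox18 (-0.51 ± 0.21, SE, edgeR adjusted p = 0.441).

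Genes that copy and express the mitochondrial genome had a median log2 fold change of -0.071 over 28 genes, 10 of them above 0. At an unadjusted p under 0.05 stood 2 of them, both with lower values in dIEC, beside 5.79% of all genes in that direction. Twnk, the helicase of mitochondrial DNA replication, was at 4.33, 5.05, 5.50, 6.49 and 5.39 CPM in dIEC, against 5.82, 7.25 and 9.002 CPM in WT. Of the 5 dIEC libraries, 4 were below every WT library (log2 fold change -0.43 ± 0.15; edgeR adjusted p = 0.427; two-sided exact permutation p = 0.0087). Ptcd3, a protein of the small mitochondrial ribosomal subunit, had -0.32 ± 0.14 (edgeR adjusted p = 0.445).

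Among 77 genes of mitochondrial ribosomal proteins, 38 had a log2 fold change above 0, with a median of -0.0026. An unadjusted p under 0.05 was found for 4 (5.19%), all lower in dIEC, a share near the 5.79% of all genes lower in dIEC at that p. In 1 of the 77 the groups did not overlap, beside 0.566% of all genes. The 3 of lowest p were Mrpl36 (-0.64 ± 0.22), Mrps23 (-0.31 ± 0.13) and Mrps10 (-0.43 ± 0.18), with edgeR adjusted p = 0.427, 0.436 and 0.436. The mitochondrial ribosomal RNAs mt-Rnr1 and mt-Rnr2 had log2 fold changes of 0.072 ± 0.30 and 0.041 ± 0.31 (edgeR adjusted p = 0.947 and 0.974). Of 13 mitochondrial transfer RNA genes only 4 had enough counts for a test, and these ran from -0.29 (mt-Tq) to 0.28 (mt-Tp).

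Regulators of mitochondrial biogenesis had 10 of 12 tested genes above 0 (median 0.083), beside 48.8% of all genes tested. An unadjusted p under 0.05 was found for 1 (8.33%), beside 10.7% of all genes tested. This was Esrra, a nuclear receptor that switches on genes of oxidative metabolism, at 49.4, 47.3, 39.1, 38.5 and 43.2 CPM in dIEC, against 29.1, 35.3 and 45.8 CPM in WT. All 5 dIEC libraries were above the WT median and 2 of them above every WT library (log2 fold change 0.28 ± 0.12; edgeR adjusted p = 0.444; two-sided exact permutation p = 0.0476). Of 20 genes of pyruvate entry and the citric acid cycle, 13 were above 0. The mitochondrial isocitrate dehydrogenase Idh2, 1 of the 20 (5%), had an unadjusted p under 0.05 (-0.23 ± 0.10, edgeR adjusted p = 0.449). Of 22 genes of import, carriers and chaperones, 8 were above 0. The outer membrane channel Vdac2, 1 of the 22 (4.55%), had an unadjusted p under 0.05 (0.28 ± 0.13, edgeR adjusted p = 0.464).

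**Figure D5:**
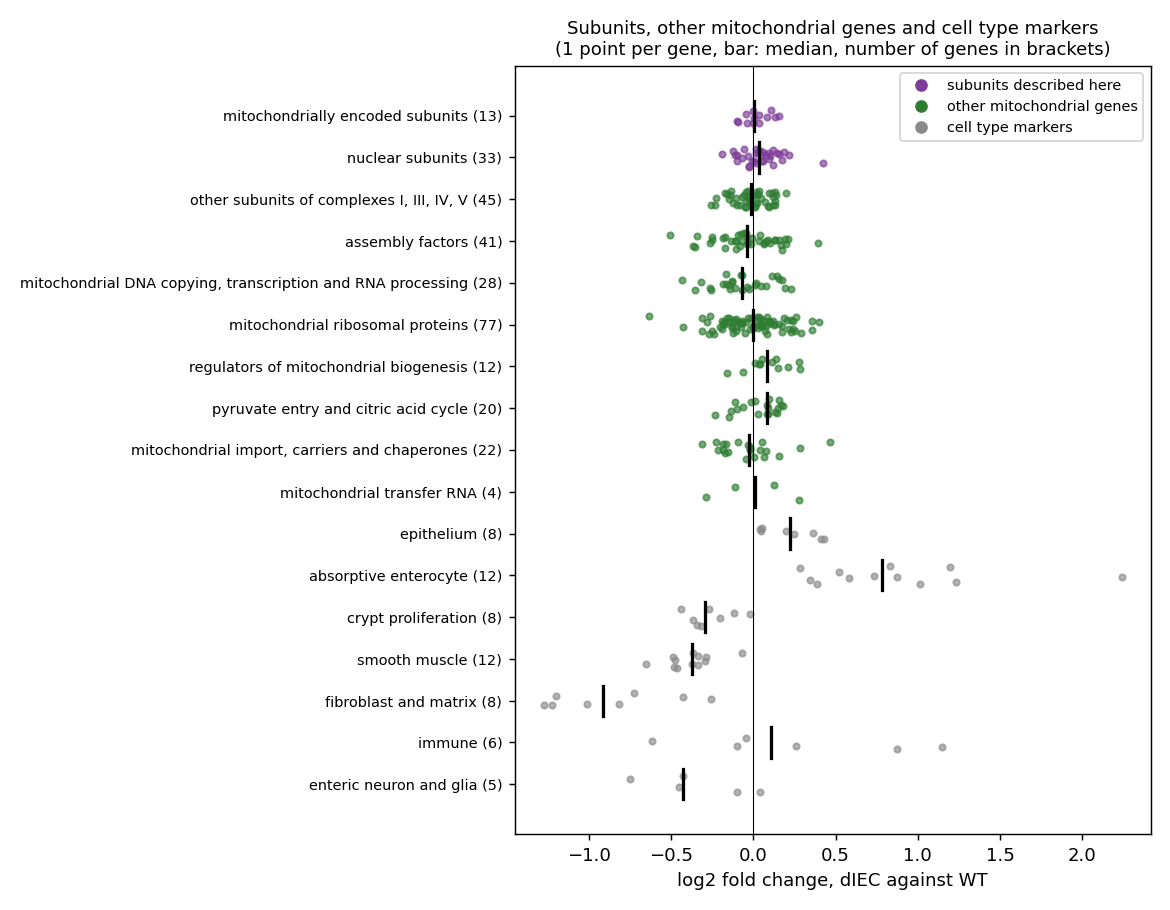
Log2 fold change, dIEC against WT, of each tested gene of the 2 groups of subunits (purple), of other mitochondrial lists (green) and of cell type markers (grey), 1 point per gene with a bar at the list's median. The 46 members lie within -0.19 and 0.42, while enterocyte markers have a median of 0.78 and fibroblast markers one of -0.91.

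Markers of the cell types in the tissue covered a wider range of log2 fold changes than the 46 members. Over all genes tested, 4.87% were higher and 5.79% lower in dIEC at an unadjusted edgeR p under 0.05. All 12 absorptive enterocyte markers had log2 fold changes above 0 (median 0.78, 5 at an unadjusted p under 0.05), and their summed level ran from 2204 to 5498 CPM in dIEC and from 1525 to 6174 CPM in WT. All 8 general epithelial markers were also above 0 (median 0.22; 2199 to 2939.9 CPM in dIEC, 1841 to 3158 CPM in WT). All 12 smooth muscle markers were below 0 (median -0.37, 1 at an unadjusted p under 0.05; 1484 to 3633 CPM in dIEC, 2599 to 5394 CPM in WT), as were all 8 fibroblast and matrix markers (median -0.91, 7 at an unadjusted p under 0.05; 278 to 472 CPM in dIEC, 287 to 928 CPM in WT). All 8 crypt proliferation markers were below 0 as well (median -0.29, none at an unadjusted p under 0.05; 78.5 to 249 CPM in dIEC, 172 to 224 CPM in WT). WT replicate 8 was the highest WT library for enterocyte and epithelial markers, the next being at 3011 and 2315.5 CPM. The same library was the lowest WT library for smooth muscle and fibroblast markers, the next being at 2986 and 425 CPM.

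Fewer markers of the remaining cell types could be tested. Of all genes tested, 10.7% had an unadjusted edgeR p under 0.05. Of 10 immune markers 6 were tested, with 3 above 0, and the summed level of these 6 was 60.2 to 95.1 CPM in dIEC and 42.1 to 90.0 CPM in WT. Cd3e (3.26 to 5.66 CPM in dIEC, 1.33 to 3.33 CPM in WT) and Cd8a (2.85 to 11.1 CPM in dIEC, 1.70 to 4.17 CPM in WT) had higher means in dIEC at an unadjusted p under 0.05. The immune markers below 0 were Adgre1, Csf1r and Itgax, with log2 fold changes of -0.62, -0.043 and -0.096. Among the untested markers, Cd79a, S100a8 and S100a9 reached at most 17, 2 and 4 counts. Of 7 markers of enteric neurons and glia 5 were tested, with 1 above 0, and the summed level of these 5 was 14.4 to 22.7 CPM in dIEC and 15.7 to 28.4 CPM in WT. Snap25 had a lower mean in dIEC at an unadjusted p under 0.05 (2.76 to 5.09 CPM in dIEC, 3.58 to 9.30 CPM in WT). Of 6 skeletal muscle markers 2 were tested, and the summed level of these 2 was 3.32 to 12.4 CPM in dIEC and 5.26 to 11.5 CPM in WT. Acta1 had a higher mean in dIEC at an unadjusted p under 0.05 (1.58 to 5.52 CPM in dIEC, 0.940 to 2.55 CPM in WT). Ckm, the other tested marker, went the other way, with a log2 fold change of -0.13. No marker of any list passed the adjusted edgeR threshold.

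With a covariate for the smooth muscle score the median log2 fold change was -0.019 for the mitochondrially encoded members and 0.035 for the nuclear ones. With the enterocyte score it was 0.032 and 0.0057, and with the ribosomal share 0.029 and 0.094. No member passed the adjusted threshold in any of these 3 fits. Over all genes tested, 1, 1 and 2 genes passed it, in the same order of fits. H2-Ab1, the targeted gene, did not pass it either (edgeR adjusted p = 0.995, 0.999 and 0.202). The lack of a passing member in these fits therefore carries little information.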

How the data were processed

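RNA was measured in 11 libraries of distal ileum, 5 dIEC and 6 WT, grouped by the genotype in each label. Per the labels' protocols, RNA came from Trizol through a Direct-zol kit into directional NEBNext Ultra libraries. Per the submitters' processing notes the tools and build were TopHat2 and mm10; of the counting tool, its strand setting and the annotation nothing is stated in the sources used here. As deposited by the authors, the file was 1 table of raw read counts per gene, whole numbers without normalization; 1 of its 31169 rows names no gene (0.00778 to 0.0147% of a library) and was left out. All 11 value columns were matched to samples by name.

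Genes were kept with filterByExpr of edgeR 4.0.16 in R 4.3.3, which left 15911, all 46 members included. Libraries were scaled with TMM, and dIEC was compared with WT by the quasi-likelihood F test with robust dispersions, Benjamini-Hochberg adjustment over all genes tested and a threshold of 0.05. The same steps were tested on simulated data with planted changes larger than that of any member. That test does not show whether changes as small as those of the members would be found. Standard errors were derived from each F value (absolute log2 fold change over the root of F), and intervals are at 95%. Single genes also had a two-sided exact permutation test of log2 CPM (prior count 2) over all 462 assignments of the libraries to groups. DESeq2 1.42.0 was an alternative. CPM per kilobase used the summed exon length of GENCODE vM21, on the same build (GRCm38), which holds 99.2% of the table's symbols, and sequences came from its transcripts. Copies were sought by aligning the members' transcripts to all others (at least 95% identity over 200 bases, more than 10000 bases from the member).

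Members, lists and the rule for named genes were chosen with earlier results of these data known. That rule gives per-library values for each mitochondrially encoded member, for the nuclear members with the lowest and highest p of each complex and for those at an unadjusted p under 0.05. From each pathway list it takes up to 3 genes of lowest p under 0.05, otherwise the extremes. Alternatives were other scalings, no filter on low counts, DESeq2, 3 covariates and leaving out each library.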

Additional observations from a re-analysis of the deposited data

Results flagged for a closer look

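Of 98 sets of values examined for a single library far from the rest of its group (46 members and other measures in each group), 4 had one, and chance alone gives about 1 in 20. In mt-Co1, dIEC replicate 6 was the lowest at 3731 CPM, with the next dIEC library at 4098 and the highest at 4240.4 CPM. The same library was the lowest for mt-Nd6 at 289 CPM, next to 329 and at most 345 CPM in the other dIEC libraries. In mt-Co3, WT replicate 12 was the highest at 1469.7 CPM, with the next WT library at 1254 and the lowest at 1151 CPM. In Ndufb8, an accessory subunit of complex I, dIEC replicate 5 was the lowest at 8.35 CPM, with the next dIEC library at 12.7 and the highest at 13.1 CPM; WT replicate 8 stood at 8.36 CPM for this gene, within a WT range up to 13.5 CPM.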

How the results depend on the processing

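No member passed the adjusted threshold in any of 20 settings. The genes past it over the whole table were 1 in the fit reported, 2 with library size alone, 11 with DESeq2, 2 with the ribosomal share as a covariate, and 1 to 319 when a library was left out, the 319 without WT replicate 8. Members at an unadjusted p under 0.05 were 1 in the fit reported, 0 with library size alone and with either the smooth muscle or the enterocyte covariate, 2 with the ribosomal covariate, and 0 to 3 when a library was left out. With library size alone the median log2 fold change was -0.21 for the mitochondrially encoded members and -0.17 for the nuclear ones, while that of all genes was -0.22. Of 874 log2 fold changes of single members under 19 alternatives, 835 moved by less than the spread within groups; the other 39 were 38 with library size alone and Cox4i1 with the enterocyte covariate (-0.098). H2-Ab1 had a log2 fold change of -1.90 with library size alone (edgeR adjusted p = 0.00611), -1.67 with DESeq2 (adjusted p = 4.18e-05), and -1.87 to -1.55 when a library was left out (edgeR adjusted p = 0.0421 without WT replicate 8). With the smooth muscle, enterocyte and ribosomal covariates, H2-Ab1 had log2 fold changes of -1.82, -1.86 and -1.79 (edgeR adjusted p = 0.995, 0.999 and 0.202). The cause of these changes was not tested. No paired analysis was run, because the sample titles give a serial library number, the treated tissue and the group, and name no pairs. Depth limits the nuclear members most: Ndufs3, Cox5b and Ndufb8 had as few as 39, 40 and 41 counts in a library.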
